A study of Mus musculus with 6 samples.

Results

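The mammalian circadian clock was followed through 10 of its core genes, Arntl, Clock, Npas2, Per1, Per2, Per3, Cry1, Nr1d1, Nr1d2 and Dbp, in liver and liver tumour of mice. The genes were found by matching the Ensembl identifiers of the count tables to symbols, and all 10 are among the 37991 genes listed and among the 17558 tested. RNA was sequenced from 3 groups of 2 libraries each, all from mice on a high-fat diet for 27 weeks that were killed at 35 weeks of age. Primary tumour tissue and liver tissue came from the same 2 mice of genotype TgAlbCreKap1lox (mouse 1 and mouse 2), and liver tissue of 2 further mice that carry TgAlbCre alone served as control. Alb-Cre drives Cre recombinase from the albumin promoter, so that floxed Kap1 (Trim28, a co-repressor of transcription) is deleted in hepatocytes and not by design in the other cells of the liver. The Cre transgene and the diet are thus shared by all 3 groups, and no group without them was measured. The labels give no time of day for the killing of any mouse, and tumour and liver of 1 mouse share the animal.

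The clock is a feedback loop of transcription. BMAL1 (the product of Arntl) pairs with CLOCK or NPAS2, binds E-box motifs and activates the Per and Cry genes, Nr1d1, Nr1d2 and Dbp. PER and CRY proteins then repress that activator, while the nuclear receptors REV-ERB alpha and beta (Nr1d1 and Nr1d2) repress Arntl and Npas2 through motifs that the ROR receptors use to activate them. In mouse liver the transcripts of Arntl and Npas2 are known to run nearly opposite in phase to those of Nr1d1 and Dbp, so that the level of a clock gene in 1 animal depends on when the tissue was taken.

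Trim28, the targeted gene, was at 5.22 and 4.59 CPM (TMM-scaled counts relative to library size) in tumours 1 and 2, at 5.06 and 6.01 CPM in the KAP1-deleted livers 1 and 2, whereas control livers were at 32.5 and 35.9 CPM. Both KAP1-deleted groups stood below both controls, and the fall was called (edgeR quasi-likelihood adjusted p = 0.000432 for tumours and 0.00393 for KAP1-deleted livers against control livers). Genes held 39723997 to 62178752 counts per library, and the first principal component, with 60.6% of the variance, set the tumours apart from the livers. Albumin was at 18157 and 34874 CPM in tumours 1 and 2 and at 53786 and 64500 CPM in the KAP1-deleted livers, whereas control livers were at 61347 and 74499 CPM.

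Promoter windows of 300 bases around annotated transcription start sites, from RefSeq on GRCm38.p6, were available for 9 of the 10 genes, all but Per2. They were searched on both strands for 4 motifs. The E-box CACGTG, its own reverse complement, is the letter sequence that BMAL1 pairs bind, and CACGTT, which reads as AACGTG on the other strand, is a variant of it. The D-box bound by DBP and its relatives was searched as TTATGTAA. The element shared by REV-ERB and ROR receptors was searched as ANTAGGTCA. The windows below are shown because they hold such letters, in capitals. The windows of Clock, Npas2, Nr1d2 and Dbp hold none of the 4 motifs. The first is Cry1 at chr10:85185005-85185304 on the minus strand, followed by Per1 at chr11:69098699-69098998 on the plus strand, Per3 at chr4:151044616-151044915 on the minus strand, Nr1d1 at chr11:98775328-98775627 on the minus strand and Arntl at chr7:113207261-113207560 on the plus strand.
Cry1: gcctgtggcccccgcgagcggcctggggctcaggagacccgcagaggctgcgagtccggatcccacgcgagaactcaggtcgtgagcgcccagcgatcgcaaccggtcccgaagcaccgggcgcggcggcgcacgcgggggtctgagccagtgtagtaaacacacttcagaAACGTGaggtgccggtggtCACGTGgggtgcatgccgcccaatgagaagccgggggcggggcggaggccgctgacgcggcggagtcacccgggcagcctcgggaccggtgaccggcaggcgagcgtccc
Per1: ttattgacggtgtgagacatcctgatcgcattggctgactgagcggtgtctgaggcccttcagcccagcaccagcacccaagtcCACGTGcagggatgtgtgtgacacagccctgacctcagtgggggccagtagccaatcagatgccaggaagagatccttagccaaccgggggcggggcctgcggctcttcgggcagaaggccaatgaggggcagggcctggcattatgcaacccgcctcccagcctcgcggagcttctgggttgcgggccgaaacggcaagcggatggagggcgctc
Per3: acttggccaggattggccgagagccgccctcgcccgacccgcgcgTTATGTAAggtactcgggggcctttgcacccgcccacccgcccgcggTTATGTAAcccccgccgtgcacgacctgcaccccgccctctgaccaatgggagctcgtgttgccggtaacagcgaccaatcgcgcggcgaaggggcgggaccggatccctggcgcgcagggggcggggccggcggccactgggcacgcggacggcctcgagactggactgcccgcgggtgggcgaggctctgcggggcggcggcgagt
Nr1d1: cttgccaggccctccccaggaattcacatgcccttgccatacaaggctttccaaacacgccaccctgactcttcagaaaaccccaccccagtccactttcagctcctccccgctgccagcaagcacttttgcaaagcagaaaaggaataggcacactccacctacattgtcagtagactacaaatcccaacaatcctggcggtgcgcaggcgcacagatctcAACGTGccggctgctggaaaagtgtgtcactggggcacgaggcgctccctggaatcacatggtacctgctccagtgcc
Arntl: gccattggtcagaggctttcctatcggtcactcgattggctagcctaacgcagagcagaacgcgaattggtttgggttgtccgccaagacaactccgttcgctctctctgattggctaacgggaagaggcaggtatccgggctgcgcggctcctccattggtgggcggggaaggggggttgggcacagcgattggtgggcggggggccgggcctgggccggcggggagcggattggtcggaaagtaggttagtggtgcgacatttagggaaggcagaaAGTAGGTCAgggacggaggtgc
Cry1 holds the E-box from base 191 and the variant from base 172 of its window, Per1 an E-box from base 85, Nr1d1 the variant from base 223, Per3 the D-box from bases 46 and 93, and Arntl the receptor element from base 279. Of the 9 members with a window, 2 hold the E-box, 2 the variant, 1 the D-box and 1 the receptor element. Among 27025 genes with a window, 8.09% hold the E-box, 5.44% the variant, 1.11% the D-box and 0.707% the receptor element. The matches describe the letters only, the E-box and its variant share no bases in these windows, and the counts were made on another build, mm9.

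Per kilobase of exon, averaged over the 3 groups, the level of Nr1d2 stood well above, and those of Arntl and Npas2 well below, the levels of the other 7 members. On this scale the order of levels was Nr1d2 with 31.2 CPM per kb, Clock with 5.89, Per2 with 4.79, Per3 with 3.56, Dbp with 3.51, Nr1d1 with 2.80, Per1 with 2.73, Cry1 with 2.29, Arntl with 0.328 and Npas2 with 0.0359 CPM per kb. Nr1d2 ranged from 24.7 to 36.2 CPM per kb over the 6 libraries and stood above every library of the other 9 genes. Arntl ranged from 0.169 to 0.426 CPM per kb, above Npas2 with 0.0173 to 0.0675 CPM per kb and below the other 8 genes. From Clock to Cry1 the ranges of neighbours overlapped, so the order of neighbours does not exceed the spread over libraries. Clock, with at least 5.22 CPM per kb, still stood above every library of Per3, which reached 4.96 CPM per kb, and of Dbp, Nr1d1, Per1 and Cry1.

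**Figure D1:**
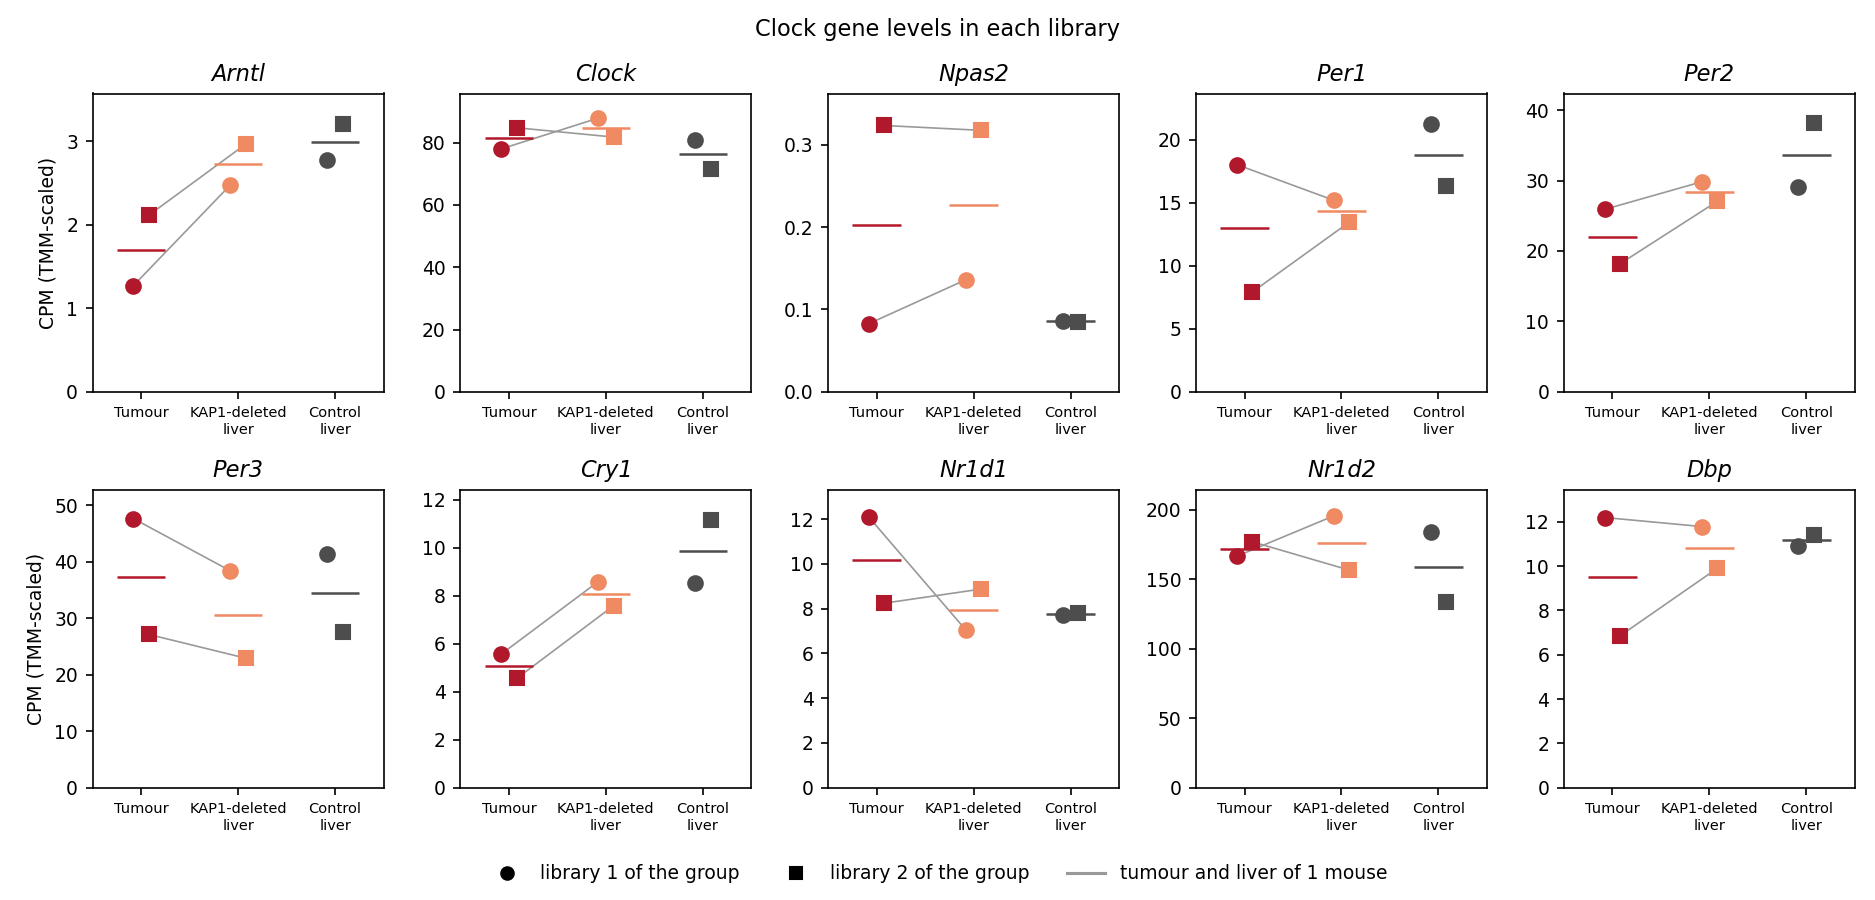
Level of each of the 10 clock genes in every library, in TMM-scaled CPM on a linear axis from 0, with tumours, KAP1-deleted livers and control livers from left to right. Points are single libraries, bars are group means and lines join tumour and liver of 1 mouse; Cry1 and Arntl are lower in both tumours than in all 4 livers, whereas Per3 separates library 2 from library 1 in each group.

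Among the activators, Arntl was low in the tumours and Clock was nearly level across all libraries. Arntl (ENSMUSG00000055116, chromosome 7 of GRCm38, 113207465 to 113314126, plus strand), which encodes BMAL1, was at 1.27 and 2.11 CPM in tumours 1 and 2 and at 2.47 and 2.97 CPM in the KAP1-deleted livers 1 and 2, whereas control livers were at 2.77 and 3.21 CPM. Both tumours were below all 4 livers, and tumour 1 was lowest. Its log2 fold change was -0.69 ± 0.31 (SE) in tumours against KAP1-deleted livers and -0.83 ± 0.31 against control livers, and neither passed the test (edgeR quasi-likelihood adjusted p = 0.184 and 0.116). Tumours and control livers come from different mice, and a fit with the mouse as a replicate block leaves 1 residual degree of freedom, from tumour and liver of the same mice, so its error holds none of the variation between mice. In that fit, here and for other genes set against control livers, the p is therefore no test against the spread between animals. There the difference of Arntl from control livers passed with adjusted p = 0.0273, and over all alternatives that p ran from 0.0273 to 0.382. In bulk tissue, fewer cells of a type and less RNA per cell cannot be told apart.

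Clock (ENSMUSG00000029238, chromosome 5, 76209868 to 76304792, minus strand), the partner of BMAL1, was at 78.0 and 84.8 CPM in tumours 1 and 2 and at 87.9 and 81.8 CPM in the KAP1-deleted livers, whereas control livers were at 81.0 and 71.7 CPM. Its 95% interval for the log2 fold change in tumours was -0.45 to 0.33 against KAP1-deleted livers and -0.30 to 0.48 against control livers. Npas2 (ENSMUSG00000026077, chromosome 1, 39193731 to 39363236, plus strand), a paralogue of Clock, had 6 and 17 counts in tumours 1 and 2, 6 and 15 counts in the KAP1-deleted livers and 3 and 5 counts in control livers. The 2 libraries of mouse 2 had the most counts and the ranges of tumours and KAP1-deleted livers overlapped. Such counts are imprecise: the exact 95% interval is 9.90 to 27.2 counts in tumour 2 and 2.20 to 13.1 counts in tumour 1.

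Among the repressors of the loop, Cry1 carried the difference of the tumours that passed the test. Cry1 (ENSMUSG00000020038, chromosome 10, 85131700 to 85185064, minus strand), which encodes a cryptochrome that silences the BMAL1 pair, was at 5.56 and 4.55 CPM in tumours 1 and 2 and at 8.58 and 7.58 CPM in the KAP1-deleted livers 1 and 2, whereas control livers were at 8.54 and 11.2 CPM. The mean was 5.06 ± 0.717 CPM in tumours, 8.08 ± 0.706 CPM in the KAP1-deleted livers and 9.85 ± 1.86 CPM in control livers (SD, n = 2 each), and both tumours stood below all 4 livers. Cry1 fell 1.95-fold in tumours against control livers, a log2 fold change of -0.96 ± 0.22 (edgeR quasi-likelihood adjusted p = 0.0282). Against KAP1-deleted livers the log2 fold change was -0.67 ± 0.22 and did not pass (adjusted p = 0.0894), whereas with the mouse as a replicate block it passed (adjusted p = 0.0358, in a range of 0.0358 to 0.711 over alternatives).

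The call of Cry1 against control livers was kept without control liver 1 and without either KAP1-deleted liver. It was lost without control liver 2 (adjusted p = 0.108), without tumour 1 (0.0681), without tumour 2 (0.123) and with library totals in place of TMM (0.179), and the adjusted p over all alternatives ran from 0.00223 to 0.179. Using library totals moved the median log2 fold change of all genes by 0.535 in tumours against KAP1-deleted livers and by 0.471 against control livers, so tumour values here are relative to the TMM scaling. The Cry1 fold change kept its sign under every alternative, from -1.16 to -0.49 against control livers.

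The Period genes, whose proteins act with cryptochromes, did not pass in any comparison. Per1 (ENSMUSG00000020893, chromosome 11, 69095217 to 69109960, plus strand) was at 18.0 and 7.92 CPM in tumours 1 and 2 and at 15.2 and 13.5 CPM in the KAP1-deleted livers, whereas control livers were at 21.3 and 16.3 CPM. Tumour 2 was the lowest of the 6 libraries and tumour 1 lay among the livers. Per1 did not pass in tumours against control livers (log2 fold change -0.53 ± 0.36, adjusted p = 0.365), but passed without tumour 1 (-1.25, adjusted p = 0.0473, the lowest of a range up to 0.960 over alternatives), where tumour 2 alone stands for its group and is assumed to vary like the others.

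Per2 (ENSMUSG00000055866, chromosome 1, 91415982 to 91459324, minus strand) was at 25.9 and 18.2 CPM in tumours 1 and 2 and at 29.8 and 27.0 CPM in the KAP1-deleted livers, whereas control livers were at 29.1 and 38.2 CPM. Both tumours were below all 4 livers, by little in tumour 1. Its log2 fold change against control livers was -0.61 ± 0.23 with adjusted p = 0.115, which became 0.0313 with the replicate block and 0.0479 with no filter on low counts, in a range of 0.0313 to 0.710. Per3 (ENSMUSG00000028957, chromosome 4, 151003652 to 151044665, minus strand) was at 47.7 and 27.1 CPM in tumours 1 and 2 and at 38.4 and 22.9 CPM in the KAP1-deleted livers, whereas control livers were at 41.5 and 27.5 CPM. In each of the 3 groups library 1 was the higher, and the groups overlapped.

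The nuclear receptor genes did not pass in any comparison. Nr1d1 (ENSMUSG00000020889, chromosome 11, 98767932 to 98775333, minus strand), which encodes REV-ERB alpha, was at 12.1 and 8.24 CPM in tumours 1 and 2 and at 7.04 and 8.87 CPM in the KAP1-deleted livers, whereas control livers were at 7.70 and 7.79 CPM. Tumour 1 stood above the other 5 libraries and tumour 2 lay between the KAP1-deleted livers. Its log2 fold change was 0.35 ± 0.24 against KAP1-deleted livers and 0.39 ± 0.24 against control livers, with adjusted p = 0.363 and 0.314 (0.0385 and 0.0434 with library totals in place of TMM, in ranges of 0.0385 to 0.931 and 0.0434 to 0.868 over alternatives). Nr1d2 (ENSMUSG00000021775, chromosome 14, 18204054 to 18239127, minus strand), for REV-ERB beta, was at 167 and 177 CPM in tumours 1 and 2 and at 196 and 157 CPM in the KAP1-deleted livers, whereas control livers were at 184 and 134 CPM, with overlapping groups. Exons of Nr1d1 overlap Thra on the opposite strand, those of Dbp overlap Sphk2 and those of Arntl overlap Gm45355, and 90.5% of the 31-base words of Nr1d2 are unique to it, so shared reads were possible at these genes.

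Dbp (ENSMUSG00000059824, chromosome 7, 45705088 to 45710203, plus strand), an output factor that drives D-box genes, was at 12.2 and 6.85 CPM in tumours 1 and 2 and at 11.8 and 9.89 CPM in the KAP1-deleted livers, whereas control livers were at 10.9 and 11.4 CPM. Tumour 2 was the lowest of the 6 libraries, and tumour 1 was the highest. The log2 fold change was -0.18 ± 0.28 against KAP1-deleted livers and -0.23 ± 0.28 against control livers, with 95% intervals of -0.82 to 0.45 and -0.86 to 0.41. The direction turned with library totals in place of TMM.

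Between liver tissue of the tumour-bearing mice and of the control mice no member passed the test. In KAP1-deleted livers against control livers, 0 of 10 members were called by edgeR's quasi-likelihood test, beside 0.336% of all genes tested, and 0 had an unadjusted p under 0.05, beside 5.44% of all genes; DESeq2 and limma-voom called 0 as well. The median log2 fold change of the members was -0.09, beside 0.0032 for all genes. Members without overlap between groups were Clock and Npas2 above and Per1 below, 3 of 10 beside 31.3% of all genes. The widest interval was that of Npas2, with a log2 fold change of 1.39 ± 0.84 and a 95% interval of -0.55 to 3.33, and the other 9 members lay between -0.39 and 0.15.

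In tumours against KAP1-deleted livers, 0 of 10 members were called by edgeR, beside 11.4% of all genes, and 1 of 10, Cry1, had an unadjusted p under 0.05, beside 29.1%; DESeq2 and limma-voom called 0. Arntl, Cry1 and Per2 were lower without overlap, 3 of 10 members without overlap beside 63.5% of all genes, and the median log2 fold change of the members was -0.16 beside -0.03 for all genes. In tumours against control livers, 1 of 10 members was called, Cry1, beside 13.9% of all genes, and DESeq2 and limma-voom each called 1. Arntl, Per2 and Cry1 had an unadjusted p under 0.05, 3 of 10 members beside 30.0% of all genes. Arntl, Cry1 and Per2 were lower and Nr1d1 higher without overlap, 4 of 10 beside 56.4% of all genes. The 2 tumour comparisons share the tumour libraries, so they are not independent of each other.

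**Figure D2:**
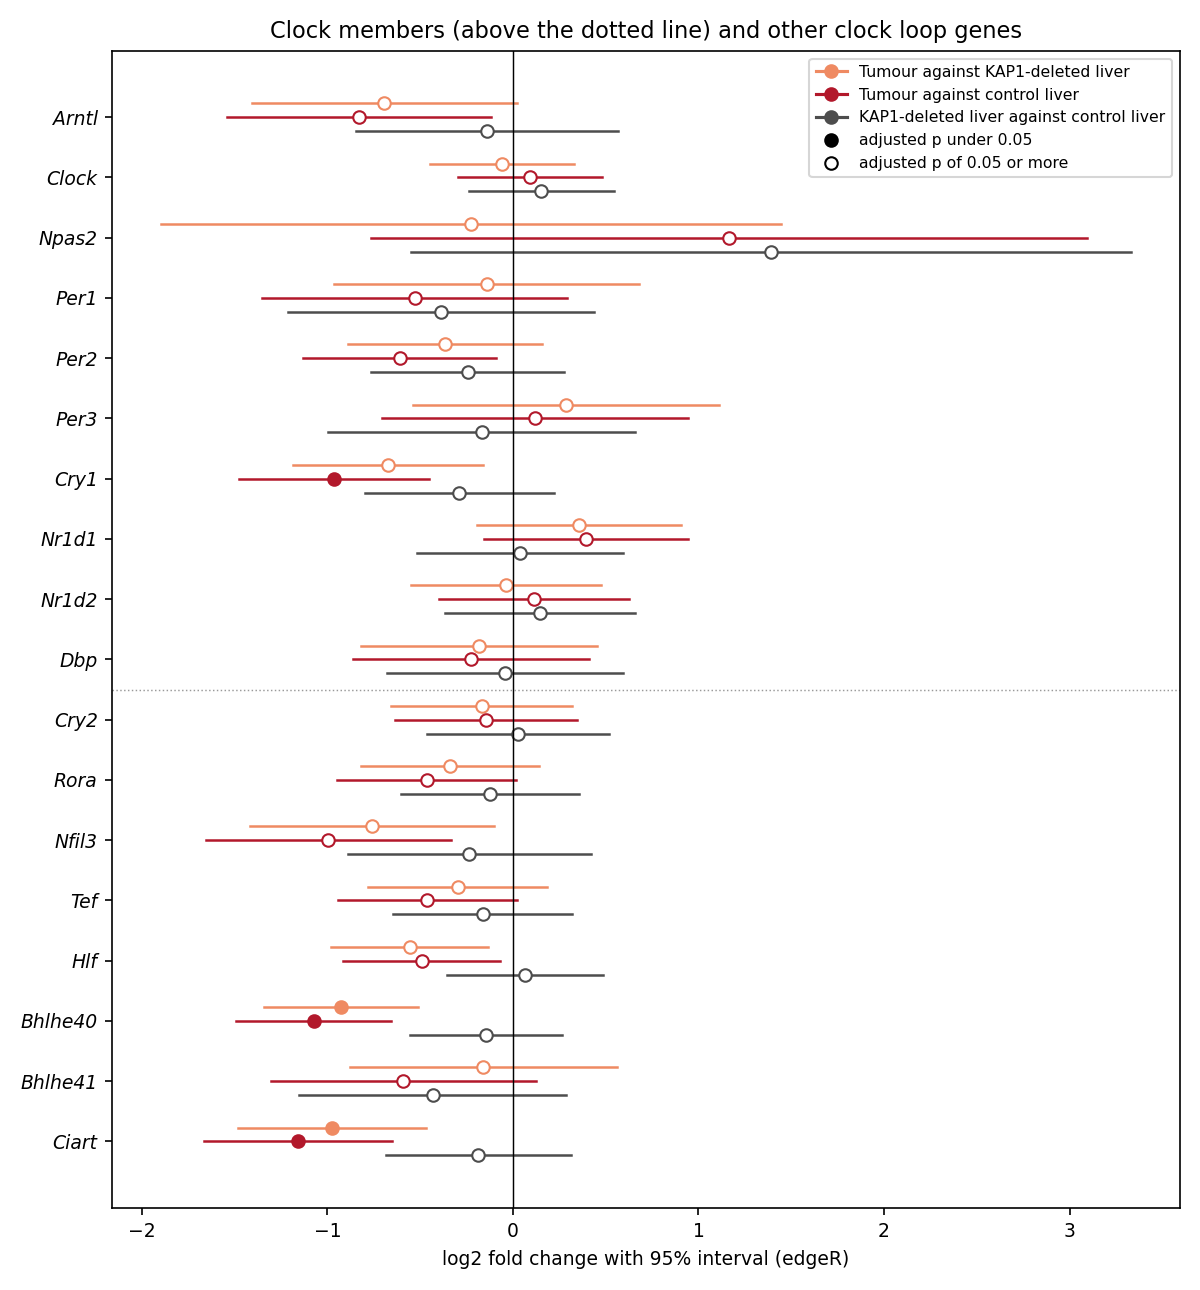
Log2 fold changes with 95% intervals of the 10 clock genes (above the dotted line) and 8 further genes of the loop, for tumours against KAP1-deleted livers, tumours against control livers and KAP1-deleted livers against control livers. Filled points passed at an adjusted p under 0.05; among the members this was Cry1 against control livers, and among the further genes Bhlhe40 and Ciart in both tumour comparisons.

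The 2 mice with both tissues allow a difference between mice to be set beside a difference between tissues. The differences are log2 ratios with exact 95% counting intervals, which cover counting error only. Mouse 2 was below mouse 1 for Per3 in both tissues, by -0.81 (-0.90 to -0.72) in tumour and -0.74 (-0.86 to -0.63) in liver. Per1 differed by -1.19 (-1.35 to -1.03) in tumour and -0.18 (-0.33 to -0.02) in liver, and Dbp by -0.83 (-1.01 to -0.65) in tumour and -0.25 (-0.44 to -0.07) in liver. Per2 differed by -0.51 (-0.62 to -0.40) in tumour and -0.14 (-0.25 to -0.029) in liver. These 4 genes were lower in mouse 2 in both tissues, with intervals that exclude 0.

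Arntl ran the other way, with mouse 2 above mouse 1 by 0.73 (0.32 to 1.15) in tumour and 0.26 (-0.11 to 0.64) in liver, an interval that includes 0 in liver. Npas2 was also higher in mouse 2, by 1.97 (0.56 to 3.60) in tumour and 1.22 (-0.23 to 2.88) in liver. Nr1d1 did not keep its direction, with -0.55 (-0.72 to -0.38) in tumour and 0.33 (0.12 to 0.55) in liver, nor did Nr1d2 with 0.09 and -0.32, nor Clock with 0.12 and -0.10. In all, 7 of 10 members had the same sign in both tissues, beside 53.3% of all genes, whereas 3 of 8 further loop genes (Cry2, Rora, Nfil3, Tef, Hlf, Bhlhe40, Bhlhe41 and Ciart) did. The mouse differences of the 10 members in liver and tumour correlated with r = 0.792, which was 0.425 over the 9 members without Npas2, -0.186 over the 8 further loop genes and 0.179 over all 17558 genes; the members are not independent and the values share their libraries.

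The median absolute log2 difference of the members was 0.642 between the tumours, beside 0.266 for all genes, and 0.256 between the KAP1-deleted livers, beside 0.236 for all genes. Between the 2 control livers, which come from 2 different mice, it was 0.295, beside 0.368 for all genes. For the 8 further loop genes it was 0.268 between the tumours, 0.199 between the KAP1-deleted livers and 0.228 between the control livers. Among the members, Per3 was lower in control liver 2 than in control liver 1, by -0.59 (-0.69 to -0.49), as were Nr1d2 with -0.46 and Per1 with -0.38, while Per2 was higher with 0.40 (0.29 to 0.50) and Cry1 with 0.39 (0.19 to 0.59).

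**Figure D3:**
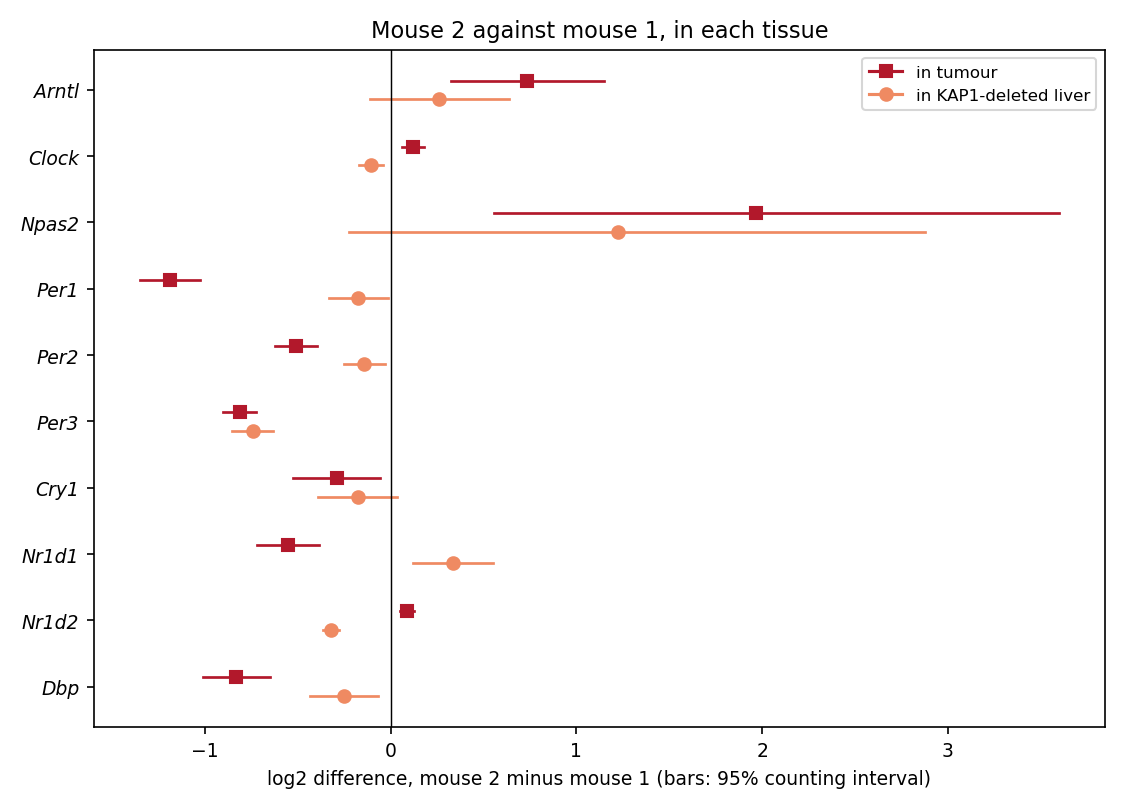
Log2 difference of mouse 2 minus mouse 1 for each clock gene, in tumour (squares) and in KAP1-deleted liver (circles), with exact 95% counting intervals. Per1, Per2, Per3, Cry1 and Dbp lie below 0 in both tissues and Arntl and Npas2 above 0, and the tumour values of Per1, at -1.19, and Dbp, at -0.83, lie farther from 0 than their liver values.

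Within a mouse, tumour minus liver removes what both tissues of the animal share. Cry1 was lower in tumour in both mice, by -0.74 (-0.98 to -0.50) in mouse 2 and -0.63 (-0.83 to -0.42) in mouse 1. Arntl was lower by -0.49 (-0.86 to -0.12) in mouse 2 and -0.96 (-1.38 to -0.55) in mouse 1, and Per2 by -0.57 (-0.69 to -0.45) and -0.20 (-0.31 to -0.10). Per3 was higher in tumour in both, by 0.24 (0.13 to 0.36) in mouse 2 and 0.31 (0.23 to 0.40) in mouse 1. These 4 members had the same sign in both mice.

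The other 6 members did not. Per1 was at -0.77 (-0.95 to -0.59) in mouse 2 and 0.25 (0.11 to 0.38) in mouse 1, and Nr1d2 at 0.18 (0.13 to 0.22) and -0.23 (-0.27 to -0.19), with intervals on opposite sides of 0. Nr1d1 was at -0.11 (-0.30 to 0.09) in mouse 2 and 0.78 (0.59 to 0.97) in mouse 1, and Dbp at -0.53 (-0.73 to -0.33) and 0.05 (-0.11 to 0.21). The tissue differences of the 2 mice thus had the same sign for 4 of 10 members and for 6 of 8 further loop genes, beside 74.6% of all genes, and correlated with r = 0.189 over the members, 0.327 over the further loop genes and 0.731 over all genes. With library totals in place of TMM the median of the members' tissue differences became positive in both mice, 0.17 in mouse 2 and 0.41 in mouse 1, against -0.30 and -0.19 with TMM.

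**Figure D4:**
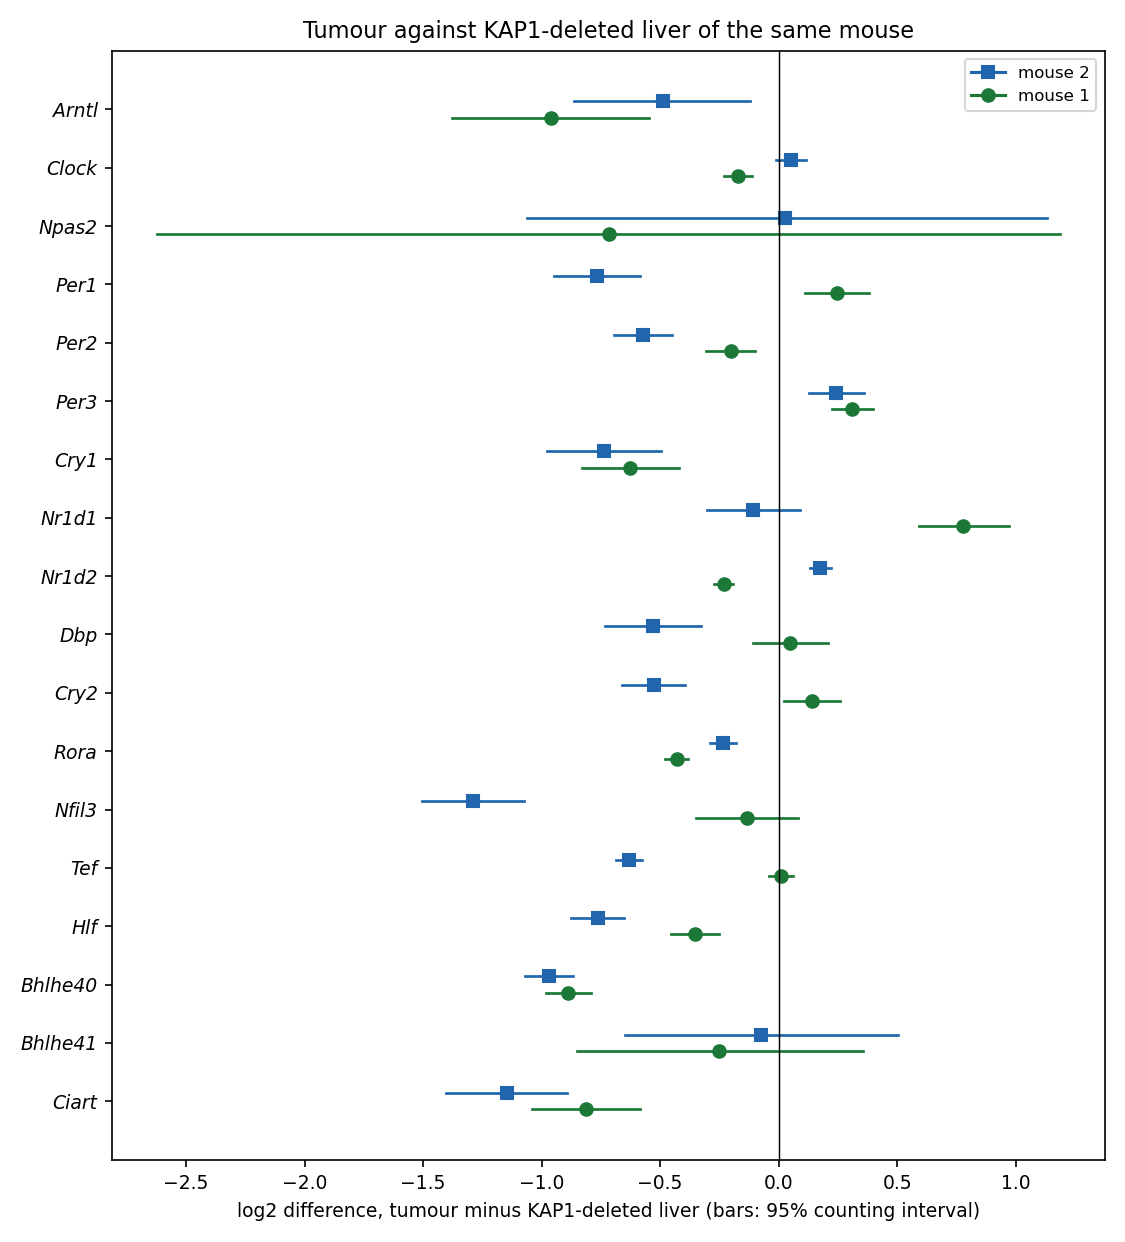
Log2 difference of tumour minus KAP1-deleted liver of the same mouse for the 10 clock genes and 8 further loop genes, in mouse 2 (squares) and mouse 1 (circles), with exact 95% counting intervals. Cry1, Arntl, Bhlhe40 and Ciart lie below 0 in both mice, whereas Per1 lies at -0.77 in mouse 2 and at 0.25 in mouse 1.

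Ratios of counts within 1 library do not depend on scaling between libraries. Per count of Arntl, Dbp had 9.60 (7.74 to 12.0) counts in tumour 1 and 3.24 (2.61 to 4.05) in tumour 2, 4.76 (3.87 to 5.91) and 3.34 (2.76 to 4.06) in the KAP1-deleted livers 1 and 2, and 3.94 (3.14 to 4.98) and 3.56 (3.03 to 4.21) in control livers 1 and 2. Tumour 1 stood apart, with an interval above those of the other 5 libraries, and the interval of tumour 2 overlapped those of the livers. Nr1d1 per Arntl was 9.51 and 3.90 in tumours 1 and 2, 2.84 and 2.99 in the KAP1-deleted livers and 2.78 and 2.43 in control livers. Both tumours had higher values than all livers, with tumour 1 (7.67 to 11.9) beyond counting error. The interval of tumour 2 (3.16 to 4.85) overlapped those of KAP1-deleted livers 1 (to 3.57) and 2 (to 3.65) and control liver 1 (to 3.55). Per3 per Arntl was 37.5 and 12.8 in tumours 1 and 2, 15.5 and 7.74 in the KAP1-deleted livers and 14.97 and 8.59 in control livers. Arntl, the shared denominator, was lowest in tumour 1 at 1.27 CPM, which raises every ratio there, so these ratios are not independent.

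Ratios to Per2, which also leave the scaling out, gave another order of the libraries. Nr1d1 per Per2 was 0.466 and 0.453 in tumours 1 and 2, 0.236 and 0.328 in the KAP1-deleted livers and 0.265 and 0.204 in control livers, so both tumours were above all 4 livers. Dbp per Per2 was 0.471 and 0.377 in tumours, 0.395 and 0.366 in the KAP1-deleted livers and 0.375 and 0.299 in control livers, with overlapping groups. Per3 per Per2 was 1.84 and 1.49 in tumours, 1.29 and 0.849 in the KAP1-deleted livers and 1.43 and 0.721 in control livers. Per2, the shared denominator, was at 25.9 and 18.2 CPM in tumours 1 and 2, below all 4 livers. That raises every ratio in the tumours, so these ratios are not independent. No test was made of these ratios.

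**Figure D5:**
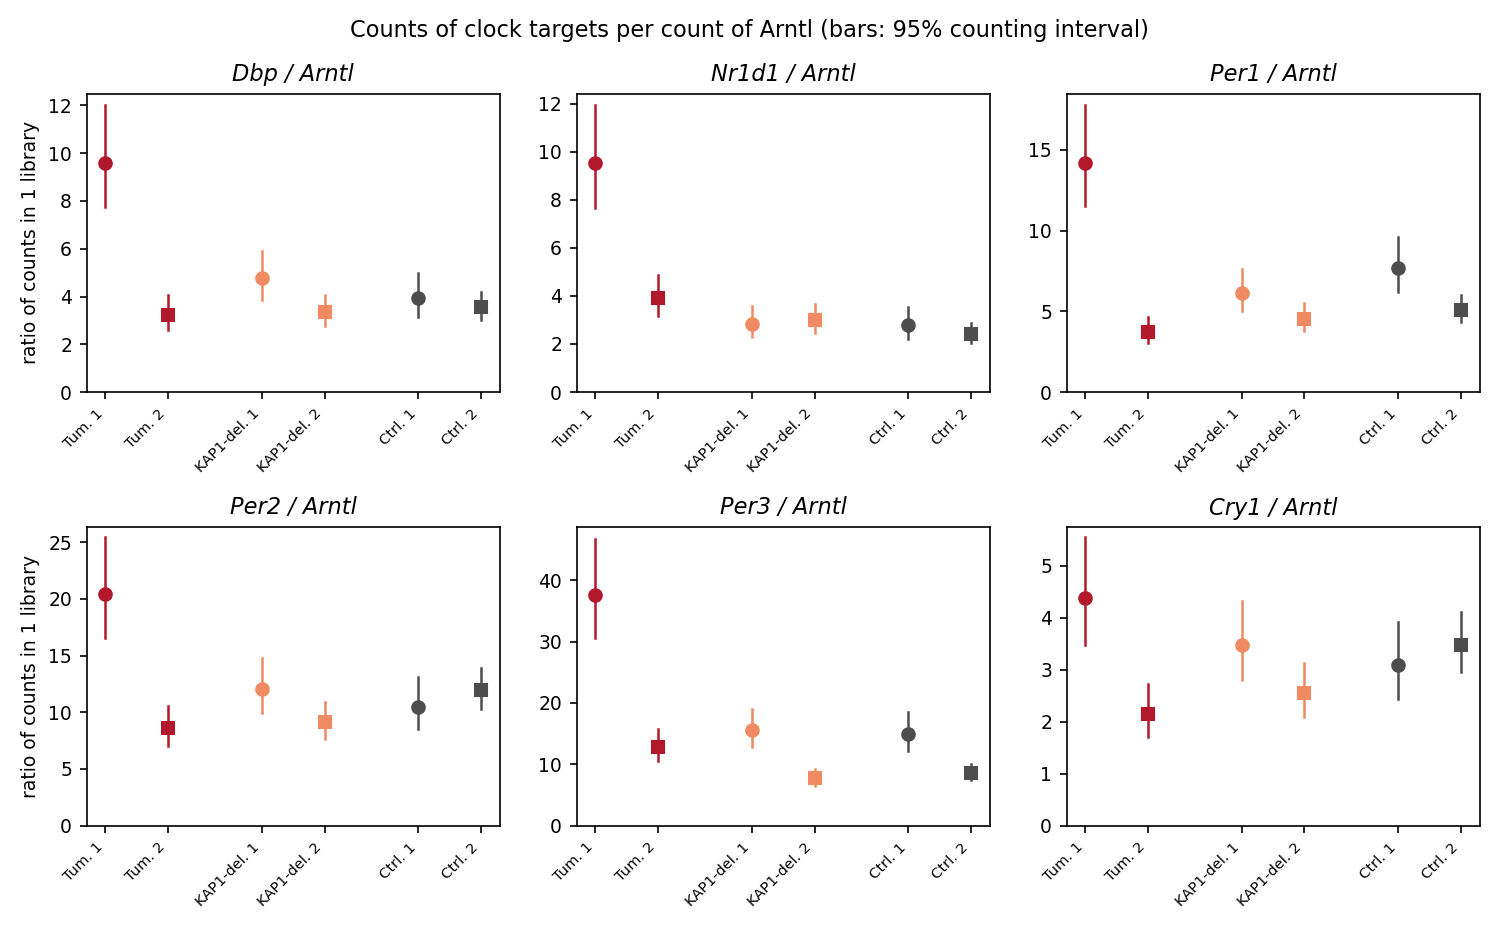
Counts of Dbp, Nr1d1, Per1, Per2, Per3 and Cry1 per count of Arntl in each library, on linear axes from 0, with tumours, KAP1-deleted livers and control livers from left to right and exact 95% counting intervals. Tumour 1 is the highest library in all 6 panels, at 9.60 for Dbp and 37.5 for Per3. The panels share Arntl as denominator, which was lowest in tumour 1 at 1.27 CPM, so they are not independent. For Cry1 the interval of tumour 1 (3.48 to 5.56) overlaps those of KAP1-deleted liver 1 (2.80 to 4.33) and both control livers.

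Of the 8 further genes of the loop, 2 fell in both tumour comparisons, beside 11.4% of all genes called against KAP1-deleted livers and 13.9% against control livers, and none rose. Bhlhe40, for the E-box repressor DEC1, was at 23.5 and 23.5 CPM in tumours 1 and 2 and at 43.4 and 46.0 CPM in the KAP1-deleted livers, whereas control livers were at 43.3 and 55.6 CPM. It fell by 0.93 ± 0.18 on the log2 scale against KAP1-deleted livers (adjusted p = 0.0179) and by 1.07 ± 0.18 against control livers (adjusted p = 0.00894). The groups did not overlap, and the 2 tumours differed from each other by less than counting error.

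Ciart, for the CLOCK-BMAL1 repressor CHRONO, was at 4.27 and 3.67 CPM in tumours 1 and 2 and at 7.49 and 8.13 CPM in the KAP1-deleted livers, whereas control livers were at 10.1 and 7.70 CPM. It fell by 0.97 ± 0.22 against KAP1-deleted livers and by 1.16 ± 0.22 against control livers (adjusted p = 0.0290 and 0.0138). Both tumours were below all 4 livers, and only 79.2% of the 31-base words of Ciart are unique to it.

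Against KAP1-deleted livers each of the 2 calls was lost when any of the 4 libraries of that comparison was left out, with adjusted p between 0.0611 and 0.173, and with library totals in place of TMM. Against control livers Bhlhe40 was lost without tumour 1 (0.0599) and tumour 2 (0.0520), Ciart without tumour 2 (0.0677), and both with library totals. Over all alternatives against control livers the adjusted p ran from 5.03e-05 to 0.0613 for Bhlhe40 and from 0.000208 to 0.0677 for Ciart. All 8 genes had a negative log2 fold change in both tumour comparisons, with a median of -0.45 and -0.54, beside -0.03 and -0.02 for all genes; Cry2, Rora and Tef turned positive with library totals in both, and Bhlhe41 against KAP1-deleted livers. Nfil3, the repressor that opposes DBP, was at 6.23 and 4.99 CPM in tumours and at 6.83 and 12.2 CPM in the KAP1-deleted livers, whereas control livers were at 11.5 and 10.9 CPM. It did not pass (adjusted p = 0.124 against KAP1-deleted livers and 0.0561 against control livers), although against control livers it passed under 6 of 14 alternatives, the replicate block among them (0.0377, in a range of 0.00115 to 0.223). In KAP1-deleted livers against control livers, 0 of the 8 were called by edgeR, beside 0.336% of all genes, and DESeq2 and limma-voom called 0. There 0 of the 8 had an unadjusted p under 0.05, beside 5.44% of all genes.

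Of 14 genes that act on clock proteins, 3 rose in tumours against KAP1-deleted livers, beside 11.4% of all genes called, and 2 against control livers, beside 13.9%, and 0 fell in either. With library totals in place of TMM 6 and 4 rose, beside 4313 and 3957 of all 17558 genes called higher. The count against KAP1-deleted livers was 1 without any 1 of the 4 libraries compared, and that against control livers was 1 without any 1 of the 6 libraries. Fbxl21, an F-box protein that targets cryptochromes, was at 19.3 and 14.4 CPM in tumours 1 and 2 and at 2.79 and 3.85 CPM in the KAP1-deleted livers, whereas control livers were at 3.17 and 4.43 CPM. It rose 5.06-fold against KAP1-deleted livers and 4.41-fold against control livers (adjusted p = 0.00319 and 0.00324), and kept both calls under all 14 alternatives. Btrc, the ubiquitin ligase subunit that binds phosphorylated PER proteins, rose by 0.81 ± 0.20 and 0.77 ± 0.20 (adjusted p = 0.0404 and 0.0412), and Tbl1x, a subunit of the NCoR co-repressor complex, by 0.67 ± 0.17 against KAP1-deleted livers (adjusted p = 0.0453). Btrc lost its call without each of the 4 libraries compared in either comparison, and against control livers also without either KAP1-deleted liver and in a fit of the 4 libraries alone; Tbl1x lost its call without each of the 4 libraries compared.

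Of 15 rhythmic output genes, 1 rose and 2 fell in each tumour comparison, beside 11.4% of all genes called against KAP1-deleted livers and 13.9% against control livers. With library totals 3 rose and 1 fell against KAP1-deleted livers, beside 4313 higher and 520 lower of all 17558 genes. Against control livers 1 rose and 1 fell with library totals, beside 3957 higher and 627 lower. Wee1, a cell cycle kinase with E-boxes in its promoter, was at 16.2 and 14.9 CPM in tumours 1 and 2 and at 6.74 and 8.13 CPM in the KAP1-deleted livers, whereas control livers were at 7.82 and 10.3 CPM. It rose by 1.06 ± 0.21 and 0.78 ± 0.21 (adjusted p = 0.0194 and 0.0454). Elovl3, a fatty acid elongase, was at 1.21 and 3.14 CPM in tumours and at 19.2 and 27.4 CPM in the KAP1-deleted livers, whereas control livers were at 20.0 and 44.1 CPM. It fell by 3.44 ± 0.59 and 3.90 ± 0.60 (adjusted p = 0.0205 and 0.0125). The other genes that fell were Upp2 against KAP1-deleted livers and Tspan4 against control livers, and each lost its call without tumour 1 or tumour 2, Upp2 also without KAP1-deleted liver 2, with DESeq2 size factors (adjusted p = 0.0584), with genes under a mean of 5 CPM left out (0.0560) and with library totals (0.204), in a range of 0.00157 to 0.361, and Tspan4 also without control liver 2 and with library totals (0.203, in a range of 0.00133 to 0.203). Wee1 lost its call against KAP1-deleted livers without any 1 of the 4 libraries compared, with adjusted p of 0.0585 to 0.127, and against control livers without control liver 1, either KAP1-deleted liver or either tumour, with adjusted p of 0.0768 to 0.166, and in a fit of the 4 libraries alone (0.0718). Elovl3 lost its call without either KAP1-deleted liver in both comparisons and, against control livers, also without control liver 2.

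Per1 also responds to glucocorticoids, whose level follows the time of day and stress. Of 12 glucocorticoid target genes, 5 fell in tumours against KAP1-deleted livers, beside 11.4% of all genes called, 9 fell against control livers, beside 13.9%, and 0 rose in either. With library totals 4 fell and 1 rose against KAP1-deleted livers, beside 520 lower and 4313 higher of all 17558 genes. Against control livers 6 fell with library totals, beside 627 of all genes called lower. The list also lay low in KAP1-deleted livers against control livers, where 10 of 12 genes lay below 0 with a median log2 fold change of -0.57, beside 0.0032 for all genes, and 4 of 12 had an unadjusted p under 0.05, beside 5.44% of all genes. There 8 of 12 were lower and 1 higher without overlap, beside 31.3% of all genes, and edgeR and limma-voom called 0, DESeq2 1 lower and edgeR with no filter on low counts 4 lower. Fkbp5, a chaperone of the glucocorticoid receptor, was at 15.9 and 20.8 CPM in tumours 1 and 2 and at 39.6 and 48.7 CPM in the KAP1-deleted livers, whereas control livers were at 56.2 and 65.1 CPM. It fell by 1.27 ± 0.21 and 1.72 ± 0.21 (adjusted p = 0.0101 and 0.00264). Tat, the tyrosine aminotransferase of hepatocytes, fell by 2.23 ± 0.36 and 3.48 ± 0.38 (adjusted p = 0.0102 and 0.00179). Without tumour 1, Fkbp5 and Tat lost the call against KAP1-deleted livers (adjusted p = 0.0687 and 0.0731), which left Dusp1 as the 1 gene of the list called there, against 3 without either KAP1-deleted liver. Against control livers 4 genes of the list were called without control liver 1, and 5 without control liver 2 or without tumour 2. The 9 include Mt1 and Mt2, metallothioneins that lost the call with the replicate block (adjusted p = 0.328 and 0.263, the highest over their alternatives, which began at 8.70e-48 and 3.16e-44), in a fit of the 4 libraries alone and without any 1 of the 4 livers. Per1, itself on the list, did not pass. Of 12 tested immediate early genes, which respond to handling and stress, 1 rose (Atf3) and 3 fell (Egr1, Junb and Ier2) against KAP1-deleted livers, beside 11.4% of all genes called, and 1 rose (Klf6) and 1 fell (Btg2) against control livers, beside 13.9%. With library totals 4 rose and 2 fell against KAP1-deleted livers, beside 4313 higher and 520 lower of all 17558 genes. Against control livers 4 rose and 0 fell with library totals, beside 3957 higher and 627 lower. The 3 genes that fell stood higher in both KAP1-deleted livers than in the tumours and the control livers. Egr1 was at 1.41 and 2.15 CPM in tumours 1 and 2 and at 9.74 and 7.96 CPM in the KAP1-deleted livers, whereas control livers were at 3.55 and 2.27 CPM. Junb was at 6.02 and 6.19 CPM in tumours and at 15.3 and 14.97 CPM in the KAP1-deleted livers, whereas control livers were at 9.70 and 7.01 CPM. In KAP1-deleted livers against control livers 10 of 12 genes of the list lay above 0 and 5 had an unadjusted p under 0.05, beside 5.44% of all genes, while edgeR and limma-voom called 0, DESeq2 1 higher and edgeR with no filter on low counts 2 higher. Of the 6 genes called in tumours all but Egr1 lost the call without 1 library or more, among them Atf3 without each library except tumour 1 and with the replicate block (adjusted p = 0.0806, in a range of 4.35e-19 to 0.341). Junb lost it without tumour 1, Ier2 without KAP1-deleted liver 2 or either tumour, Klf6 without either tumour, and Btg2 without control liver 2 or either tumour. Of 10 heat shock genes edgeR called 0 in both tumour comparisons, beside 11.4% of all genes against KAP1-deleted livers and 13.9% against control livers. In the same order 1 and 2 of the 10 had an unadjusted p under 0.05, beside 29.1% and 30.0% of all genes. Against control livers DESeq2 called 1 lower, beside 1727 of all genes.

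Levels of cell type markers differed between the tumours and the livers beside these results. The summed level of 9 hepatocyte markers was 55278 and 72496 CPM in tumours 1 and 2 and 110492 to 120077 CPM in the 4 livers. Alb and Apob were its largest terms. Alb passed in neither tumour comparison (edgeR adjusted p = 0.126 and 0.0796). Apob was at 27940 and 25444 CPM in tumours and 22490 to 31703 CPM in livers. All 9 markers lay below 0 against KAP1-deleted livers and 8 of the 9 against control livers. The sum of 10 endothelial markers was 264 and 238 CPM in tumours and 362 to 400 CPM in livers, and that of 10 macrophage markers 286 and 404 CPM in tumours and 585 to 657 CPM in livers. Against KAP1-deleted livers 2 of the 9 hepatocyte, 2 of the 10 endothelial and 5 of the 10 macrophage markers fell, beside 11.4% of all genes called, and against control livers 3, 2 and 6, beside 13.9%. The sum of 10 stellate cell markers was 233 and 386 CPM in tumours and 414 to 522 CPM in livers, but its members differed in direction. Rgs5 and Des fell in both tumour comparisons (adjusted p = 0.00423 and 0.0361 against KAP1-deleted livers, 0.00323 and 0.0258 against control livers), whereas 4 of the 10 lay above 0 in each, among them Col3a1, a fibrillar collagen, at 75.3 and 78.4 CPM in tumours 1 and 2 and at 25.8 and 38.2 CPM in the KAP1-deleted livers, with control livers at 13.1 and 53.9 CPM. The sum of 10 lymphocyte markers was 4.65 and 8.19 CPM in tumours and 2.497 to 9.04 CPM in livers, with the highest sum in KAP1-deleted liver 2, where the B cell gene Ms4a1 was at 3.92 CPM. All 9 tested lymphocyte markers lay above 0 in tumours against control livers, with a median log2 fold change of 1.25, and 1 rose, the T cell gene Cd8a (2.45 ± 0.58, edgeR adjusted p = 0.0299). Cd8a had only 7 and 13 counts in control livers 1 and 2. Against KAP1-deleted livers 6 of the 9 lay above 0 and 3 below, the lowest at -1.82, and edgeR called 0. The marker genes named here, other than Alb, were picked after their values were seen. The sum of acinar markers was 9.83 and 38.4 CPM in tumours and 5.11 to 27.1 CPM in livers. In the tumours Cela1 made up most of this sum, at 9.24 and 37.8 CPM. Ctrb1, Pnlip and Cpa1 had 281, 178 and 162 counts in KAP1-deleted liver 2 and at most 6 counts in any other library. The sum of 8 cholangiocyte markers was 5.25 and 23.9 CPM in tumours and 18.8 to 37.8 CPM in livers. No hepatocyte, endothelial or macrophage marker was at 0 in any library. The part of these markers in the differences of Cry1, Arntl, Bhlhe40 and Ciart was not tested.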

How the data were processed

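RNA of 6 mouse liver or tumour samples was sequenced from stranded TruSeq libraries, per the labels' protocols. The deposited values are raw read counts by Ensembl identifier. The authors used TopHat, HTSeq 0.6.1 and build mm9, per the submitters' processing notes, which give no TopHat version. No source used here gives the annotation or the strand setting of the counting, so genes with overlapping exons on the opposite strand are uncertain. All libraries carry 1 batch label. Of 37991 identifiers, 32919 matched a symbol of GENCODE on GRCm38, and 16523 of the 17558 genes tested have one. Entries without a gene were left out of library sizes; reads outside annotated genes made up 18.0% to 35.0% of the counted reads and ambiguous ones 1.73% to 2.87%.

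The test was that of edgeR 4.0.16 (R 4.3.3): filterByExpr by group (minimum count 10, minimum total 15), TMM scaling, 1 mean per group over all 6 libraries and a robust quasi-likelihood fit with 3 residual degrees of freedom, two-sided, with Benjamini-Hochberg adjustment over the 17558 genes at a threshold of 0.05. CPM and log2 differences were computed from the deposited counts. Levels per kilobase used exon lengths on GRCm38. Alternatives were DESeq2 1.42.0, limma 3.58.1 (voom), other scalings and filters, fits without each library and a mouse block. The edgeR step was tested on simulated data. With 2 libraries per group, p-values reflect only how these samples vary, and intervals of counts (95%, exact) cover counting error only.

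The mouse codes in the sample titles pair tumour and KAP1-deleted liver of each number in 1 animal; the deviations of paired libraries from their group means correlated with r = 0.185 over 17558 genes. Genes are named by a rule: all members, 8 further loop genes (1 other is not reported here), and up to 4 called genes with the smallest adjusted p per further list and comparison, with Trim28, Alb and the genes most like Dbp and Arntl. The members and lists were chosen with earlier results of these data known.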

Additional observations from a re-analysis of the deposited data

Results flagged for a closer look

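For 3 genes the TMM-scaled difference of tumour minus KAP1-deleted liver lay on opposite sides of 0 in the 2 mice, with each counting interval excluding 0. Per1 was at -0.77 in mouse 2 and 0.25 in mouse 1 on the log2 scale, so the mice differed by -1.01. Nr1d2 was at 0.18 in mouse 2 and -0.23 in mouse 1, a difference of 0.41. Cry2 was at -0.53 in mouse 2 and 0.14 in mouse 1, a difference of -0.67. These are 2 of the 10 clock members and 1 of the 8 further loop genes. The difference between the mice was not tested, since each mouse has 1 library per tissue. The counting intervals do not cover the choice of scaling, so the opposite signs are given for the TMM scale only. With library totals the median tissue difference of the members moved from -0.30 to 0.17 in mouse 2 and from -0.19 to 0.41 in mouse 1.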

How the results depend on the processing

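With 2 libraries per group, each fit without a library leaves a single sample that is assumed to vary like the other groups. Depth was at least 39723997 counts in genes per library, so Npas2 with 3 to 17 counts is the member limited by depth. Over all genes, no filter on low counts gave 1563 higher and 2256 lower calls in tumours against KAP1-deleted livers, 1801 and 2314 in tumours against control livers, and 354 and 217 in KAP1-deleted against control livers. A mean CPM of at least 5 gave 485 and 743, 556 and 876, and 13 and 4 in the same order. Library totals in place of TMM gave 4313 and 520, and 3957 and 627, in the 2 tumour comparisons, where the replicate block (the mouse as a term) gave 1572 and 2321, and 1861 and 2296. In KAP1-deleted against control livers DESeq2 gave 152 and 78, limma-voom 26 higher, and a fit of the 4 libraries alone 13 and 7. Leaving out 1 library at a time gave 295 to 1093 higher and 265 to 1684 lower calls in tumours against KAP1-deleted livers, 663 to 997 and 440 to 1623 in tumours against control livers, and 20 to 64 and 8 to 20 in KAP1-deleted against control livers.

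Of the clock members, 2 were called higher and 0 lower in tumours against control livers with library totals (Clock and Nr1d1), 2 lower with no filter on low counts (Cry1 and Per2), 3 lower with the replicate block (Arntl, Per2 and Cry1) and 0 to 1 lower without 1 library. Against KAP1-deleted livers 1 was called higher with library totals (Nr1d1) and 1 lower with the replicate block (Cry1), and 0 without any 1 library. In KAP1-deleted against control livers 0 were called under every alternative run. The cause of these changes was not tested. Beside the members, library totals called 3957 of all 17558 genes higher in tumours against control livers and 4313 against KAP1-deleted livers. The replicate block called 2296 and 2321 genes lower in the same order. With no filter on low counts 2314 genes were called lower against control livers. The block changed no other call of a member, and it uses only the mice sampled in tumour and in liver to estimate spread. The counts of the gene lists under each alternative were added after seeing the data. With library totals in place of TMM the log2 fold change turned sign in tumours against KAP1-deleted livers for Clock 0.47, Npas2 0.28, Per1 0.42, Per2 0.18, Nr1d2 0.50, Dbp 0.37, Cry2 0.38, Rora 0.20, Tef 0.24, Bhlhe41 0.37 and Trim28 0.36. With library totals in place of TMM the log2 fold change turned sign in tumours against control livers for Dbp 0.26, Cry2 0.33, Rora 0.018 and Tef 0.016. With library totals in place of TMM the log2 fold change turned sign in KAP1-deleted against control livers for Nr1d1 -0.024, Cry2 -0.040 and Hlf -0.0022. Nr1d2 in tumours against KAP1-deleted livers also turned to 0.016 with DESeq2 size factors, 0.015 with a mean CPM of at least 5, 0.016 with DESeq2 and 0.0060 with the 4 libraries alone. The members' median tissue difference became 0.17 in mouse 2 and 0.41 in mouse 1 with library totals. Without 1 library, fold changes in tumours against KAP1-deleted livers turned sign within these ranges: Npas2 -1.45 to 0.51, Per1 -0.86 to 0.32, Per3 -0.18 to 0.69, Nr1d2 -0.20 to 0.12, Dbp -0.66 to 0.16, Cry2 -0.46 to 0.059, Bhlhe41 -0.37 to 0.023. Without 1 library, fold changes in tumours against control livers turned sign within these ranges: Npas2 -0.055 to 1.88, Per3 -0.35 to 0.46, Nr1d2 -0.10 to 0.35, Dbp -0.71 to 0.12, Cry2 -0.44 to 0.087. Without 1 library, fold changes in KAP1-deleted against control livers turned sign within these ranges: Per3 -0.58 to 0.16, Nr1d1 -0.14 to 0.20, Nr1d2 -0.086 to 0.39, Dbp -0.17 to 0.078, Cry2 -0.062 to 0.096, Rora -0.32 to 0.074, Nfil3 -0.71 to 0.13, Hlf -0.066 to 0.19, Bhlhe40 -0.32 to 0.026, Ciart -0.39 to 0.017.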

Other observations

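Across the 6 libraries, which come from 4 mice, the genes whose log2 level ran most like that of Dbp, among 6602 genes with a mean of at least 10 CPM, were Esrp2 (Pearson r = 0.986), Mst1 (0.978), Fam169b (0.974), Elmo3 (0.973) and Lrp5 (0.968), and 52 genes had r over 0.9. For Arntl, among 6603 genes, they were Parp9 (0.994), Fn1 (0.994), Alb (0.993), Cyp2j5 (0.991) and Impdh2 (0.991), and 360 genes had r over 0.9. The values describe likeness over libraries that differ in tissue as well as in mouse. The named genes have the highest of 6602 and 6603 values, each over 6 libraries only. How many genes would have r over 0.9 by chance was not tested.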
